A study of Mus musculus with 8 samples.

Results

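Proteasome genes were taken as the genes of the table whose symbol is Psm followed by a letter from a to g and a number, which gave 48 of 54532 genes. They were read in bone marrow-derived macrophages (BMDMs), that is, macrophages differentiated in vitro from marrow progenitors by M-CSF, the growth factor of that lineage. RNA was sequenced from 4 WT and 4 Gsdmd-/- libraries after 6 days of differentiation, and no library had received a treatment. According to the methods, the WT mice were female C57BL/6J aged 6 to 8 weeks, and the Gsdmd knockout mice, which lack the pore-forming protein gasdermin D in the whole animal, were a gift from another institute. For the macrophages, the methods name marrow of female C57BL/6J mice aged 6 to 8 weeks and do not say which genotype is meant. The age of the knockout mice, their genetic background beyond the knockout and whether they were littermates of the WT mice are not otherwise given in the sources used here. It is not stated either whether the libraries of a genotype are separate mice, so the p-values below measure the spread between these libraries, which may be technical.

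The proteasome is the protease that degrades ubiquitin-tagged proteins in the cytosol and the nucleus. Its barrel, the 20S core, has outer rings of alpha subunits (Psma genes) and inner rings of beta subunits (Psmb genes), and only the beta subunits Psmb5, Psmb6 and Psmb7 cut peptide bonds in the standard form. In the immunoproteasome these are replaced by Psmb8, Psmb9 and Psmb10, which are induced by interferon-gamma and favour peptides that fit MHC class I. The core is opened by caps, of which the 19S cap (Psmc ATPases and Psmd subunits) feeds in ubiquitinated substrates, while PA28 (Psme1 to Psme3) and PA200 (Psme4) act without ubiquitin. Psmf1 is known as an inhibitor of the core, and Psmg1 to Psmg4 are chaperones of its assembly. Macrophages carry both forms of the core, and their immunoproteasome takes part in antigen processing.

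The split of reads between a pair of nearly identical genes bears on one result below, so the sequences concerned are shown first. Psme2 (chromosome 14, 55587441 to 55591113, minus strand) encodes the beta chain of PA28, and Psme2b is a near copy of it on another chromosome whose symbol does not meet the naming rule. Over coding sequences of 717 bases each in GENCODE M21, the copies differed at 5 bases and were 99.3% identical, with an identical run of 311 bases. The 120 coding bases from base 424 to base 543 hold 3 of the differences, which are the bases in capitals.
Psme2: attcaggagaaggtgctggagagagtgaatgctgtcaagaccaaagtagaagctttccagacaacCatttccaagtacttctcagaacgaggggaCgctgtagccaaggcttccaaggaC
Psme2b: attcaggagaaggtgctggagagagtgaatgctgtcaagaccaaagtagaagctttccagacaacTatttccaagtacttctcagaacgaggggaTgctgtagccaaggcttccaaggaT
A read that lies within these bases and covers none of the capitals could be counted on either gene.

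Proteasome genes are known targets of the transcription factor NRF1 (Nfe2l1), which binds antioxidant response elements. In the whole 250 bases before the gene starts in RefSeq, annotated exons included, the core letters TGACNNNGC, searched on both strands, were found for 5 of the 40 members with an entry, namely Psmb5, Psmb6, Psmc6, Psmd9 and Psmd12, against 10.2% of all 32851 promoters. Those of the standard catalytic subunits Psmb5 (chr14:54618023-54618245, minus strand) and Psmb6 (chr11:70525107-70525356, plus strand) are shown from build GRCm38.p6 without annotated exons, with the match in capitals.
Psmb5: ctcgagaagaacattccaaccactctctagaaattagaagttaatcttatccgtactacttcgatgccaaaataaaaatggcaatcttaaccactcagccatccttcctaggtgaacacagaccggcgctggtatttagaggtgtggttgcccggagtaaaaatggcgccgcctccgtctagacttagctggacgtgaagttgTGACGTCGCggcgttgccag
Psmb6: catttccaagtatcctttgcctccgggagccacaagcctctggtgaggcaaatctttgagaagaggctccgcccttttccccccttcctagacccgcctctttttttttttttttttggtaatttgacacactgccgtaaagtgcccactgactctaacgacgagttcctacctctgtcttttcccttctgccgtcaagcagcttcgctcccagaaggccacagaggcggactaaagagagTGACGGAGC
Among the interferon-related letters, TTCNNNGAA was found for 2 members, Psmg1 and, only with annotated exons included, Psmb8, and in 7.02% of all promoters. A pair of GAAA units with 2 free bases between them was found for 3 members, Psmb3, Psmd4 and Psmd9, and in 2.98% of all promoters. These matches describe the letters in a window and say nothing of binding.

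Between 14935114 and 16794810 reads were counted per library, and the proteasome genes held between 0.343% and 0.497% of them. Expression of Gsdmd lay between 63.5 and 95.5 CPM (counts relative to library size, scaled by TMM) in the WT and between 14.4 and 18.2 CPM in the Gsdmd-/- libraries, a log2 fold change of -2.22 (adjusted p = 4.67e-05, edgeR quasi-likelihood test) in the direction of the labels. All 7 macrophage markers reached 1 CPM in at least 1 library, and their sum was 15316 CPM or more in every library. WT 2 and WT 3 stood apart from the other 6 libraries on the first principal component of all genes, with 45.4 and 38.8 against -25.9 to -7.19. Their summed macrophage markers were lower (15316 to 17207 CPM against 19377 to 23409), their dendritic cell markers higher (48.4 to 52.4 against 16.5 to 21.4 CPM) and their mast cell and basophil markers lower (10.5 to 12.4 against 46.3 to 71.9 CPM). Endothelial markers summed to 27.8 to 29.6 CPM in these libraries and to 48.5 to 80.9 CPM in the others. Such sums weigh the most abundant gene most, and the direction of single markers is not given here. Of the 6 dendritic cell markers, only Zbtb46, Cd209a and Clec9a reached 1 CPM in any library. Only Cpa3 and Kit of the 4 mast cell and basophil markers did, and only Cdh5 and Kdr of the 3 endothelial ones. Neutrophil markers stayed at 6.98 CPM or less, stromal markers at 2.62 and lymphoid markers at 0.609, and Ly6g, Siglech, Ncr1, Hba-a1 and Hbb-bs had 0 counts, which allows up to 3 counts or 0.201 CPM per library as far as counting error goes. The part of these cell types in the results was not tested, and in bulk RNA fewer expressing cells and less RNA per cell cannot be told apart.

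The proteasome was expressed in all its parts in BMDMs of both genotypes. After division by transcript length, Psmd8, a 19S lid subunit, was highest with 269 ± 31.5 CPM per kb in the WT and 330.5 ± 27.2 CPM per kb in the Gsdmd-/- libraries (SD, n = 4 each). Psmb6 followed with 232 ± 69.5 and 272 ± 36.9 CPM per kb. Psmb5 came next with 139 ± 24.9 and 143 ± 22.9 CPM per kb. Over both genotypes, the median level was 81.7 CPM per kb for the 7 alpha subunits, 93.9 for the 7 standard beta subunits, 64.4 for the 6 ATPases of the 19S base and 51.5 for the 11 other 19S subunits. Inducible beta subunits had a lower median of 42.8 CPM per kb, ranging from Psmb9 with 19.2 to Psmb10 with 67.9. Among the activators, Psme1 was highest with 78.2 CPM per kb and Psme4 lowest with 13.7. The inhibitor Psmf1 was at 7.58 CPM per kb, the 3 chaperones of the 19S base had a median of 11.5, and the 4 chaperones of the core one of 10.2. Of the subunits known from single tissues, the spermatogenic alpha subunit Psma8 was at 2.57 CPM per kb. The thymic beta subunit Psmb11 had 1 count in all 8 libraries, in Gsdmd-/- 1, and was not tested.

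Expression of the proteasome genes did not differ detectably between WT and Gsdmd-/- BMDMs. Of the 47 members tested among 12911 genes, 0 had an adjusted p under 0.05 by the edgeR quasi-likelihood test, where 0.349% of all genes did. At an unadjusted p under 0.05, 1 member was higher in the Gsdmd-/- libraries, where 4.74% of all genes were, and 0 were lower, where 7.3% of all genes were. By DESeq2 and limma voom, too, 0 members had an adjusted p under 0.05 and 1 an unadjusted one, which 12.2% and 11.5% of all genes had. No member had separate ranges in the genotypes, which 7.6% of all genes had. An unadjusted p under 0.05 together with a log2 fold change of at least 0.5 in size was reached by 0 members and by 4.83% of all genes. The 95% intervals of the log2 fold changes lay within -1 and 1 for all 47 members tested and within -0.5 and 0.5 for 36 of them.

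**Figure D1:**
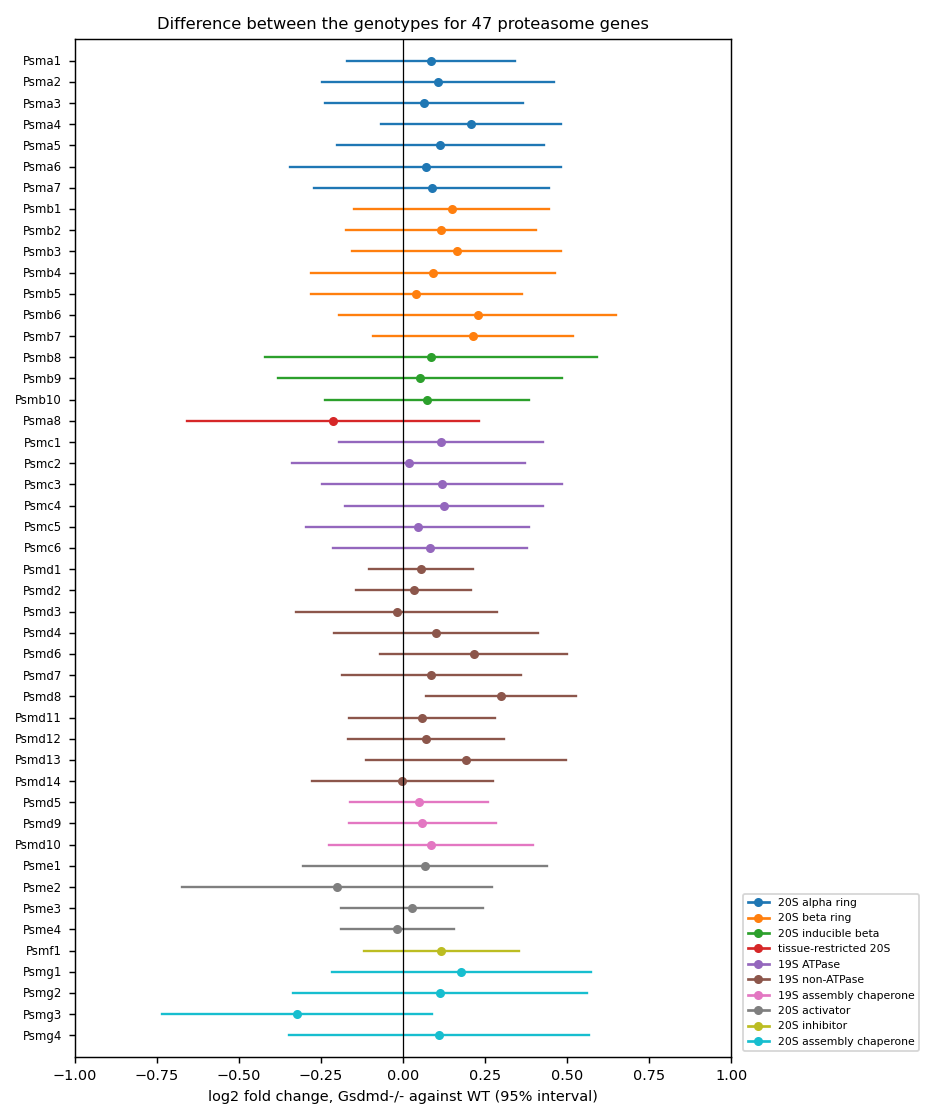
Log2 fold change of Gsdmd-/- against WT (x axis; above 0 is higher in Gsdmd-/-) for the 47 proteasome genes tested, with 95% intervals from edgeR (n = 4 libraries per genotype), coloured by role. The estimates lie between -0.32 (Psmg3) and 0.30 (Psmd8), and 46 of the 47 intervals contain 0.

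The estimates leaned to one side, and the size and direction of the lean depended on the libraries included. The log2 fold change was above 0 for 41 members and below 0 for 6, with a median of 0.08, while 48.5% of all genes were above 0 and their median was -0.0068. Of the 36 Nduf genes of respiratory complex I, 29 were above 0 with a median of 0.09, and of the 654 genes with a principal transcript under 1 kb, 413 were, with a median of 0.07, while of the 76 cytosolic ribosomal protein genes 34 were, with a median of -0.0091. The median was 0.11 for the 14 standard core subunits, 0.07 for the 25 members of the caps, their chaperones and the inhibitor (21 above 0) and 0.07 for the 3 inducible subunits. The median of the standard core subunits was 0.02 without WT 2, 0.04 without Gsdmd-/- 3, 0.28 without WT 4 and -0.05 without WT 2 and WT 3, and that of the inducible subunits was -0.07 without WT 2. Without WT 2 and WT 3, which stood apart, 9 members were above 0 and 38 below, with a median of -0.06, and 0 members were higher and 2, Psmd3 and Psmg3, lower at an unadjusted p under 0.05, where 13.1% of all genes had one in either direction. Without WT 2 alone, 27 were above 0 and 20 below, with a median of 0.01, and without Gsdmd-/- 3, 34 were above 0 and 13 below, with a median of 0.02. Without WT 4, 43 were above 0, the median was 0.24, and 16 members (34.0%) were higher at an unadjusted p under 0.05, where 9.38% of all genes were. None of these fits gave a member an adjusted p under 0.05. The lowest was 0.335 without WT 2 and WT 3, 0.578 without WT 2 and 0.0885 without WT 4, against 0.301 with all libraries.

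The proteasome genes moved together from library to library within each genotype. The ratio of the highest to the lowest WT library had a median of 1.54 over the members (1.13 to 2.32), and that of the Gsdmd-/- libraries a median of 1.26 (up to 1.78). For all 47 members tested, the range within the WT was wider than the difference between the genotypes, as it was for 93.0% of all genes. WT 4 was the highest WT library for 44 members (93.6%), where this held for 33.5% of all genes, and WT 2 the lowest for 37 (78.7%), against 26.4%. Of the Gsdmd-/- libraries, replicate 3 was highest for 39 members (83.0%, against 33.7%). The highest library of all was WT 4 or Gsdmd-/- 3 for 45 members (95.7%, against 34.1%).

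**Figure D2:**
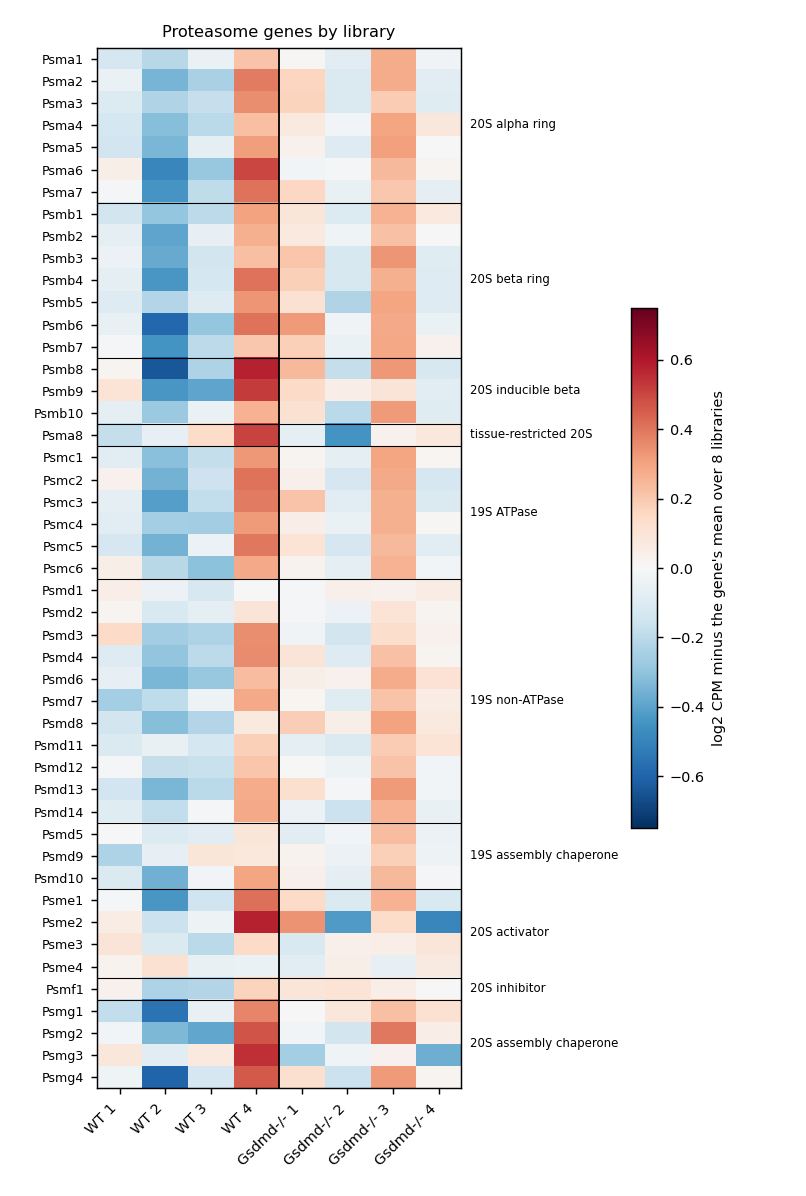
Log2 CPM of each of the 47 tested proteasome genes (rows, grouped by role) in each library (columns) after subtraction of the gene's mean over the 8 libraries. WT 4 and Gsdmd-/- 3 are red in nearly every row and WT 2 is blue in most, and the rows of Psmd1, Psmd2 and Psme4 are nearly flat.

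The median deviation of the members from their own means was -0.06, -0.31, -0.16 and 0.31 (log2 CPM) in WT 1 to 4. It was 0.05, -0.07, 0.26 and -0.0066 in Gsdmd-/- 1 to 4, whereas the median of all genes stayed between -0.0065 and 0.02. The highest and lowest libraries differed most for the inducible beta subunits, with median deviations of -0.43 in WT 2 and 0.52 in WT 4, and least for the 3 chaperones of the 19S base, with -0.11 in WT 1 and 0.23 in Gsdmd-/- 3. Psmd1, the scaffold of the 19S base, went against the pattern, with 121, 114, 108 and 117 CPM in WT 1 to 4 and 116, 120.4, 119.6 and 122 in Gsdmd-/- 1 to 4. So did Psme4, with 90.2, 96.1, 85.4 and 85.6 CPM in WT 1 to 4 and 83.5, 91.3, 85.1 and 93.0 in Gsdmd-/- 1 to 4. Both were picked out after their values were seen.

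Transcript length moved with the same libraries across all genes. The 654 tested genes with a principal transcript under 1 kb had median deviations of -0.11, -0.25, -0.02 and 0.26 in WT 1 to 4 and of 0.13, -0.09, 0.24 and -0.09 in Gsdmd-/- 1 to 4. Those of the 3606 genes with 4 kb or more ran the other way, with 0.13 in WT 2 and -0.13 in WT 4. The 47 members had a median transcript of 1440 bases. The 23 shorter ones had medians of -0.36 in WT 2 and 0.36 in WT 4, and the 24 longer ones -0.22 and 0.28. Genes of other large complexes went with the same libraries, with -0.26 in WT 2 and 0.36 in WT 4 for 76 cytosolic ribosomal protein genes and -0.26 and 0.29 for 36 Nduf genes of respiratory complex I. The part of transcript length and of the cell type markers in the profile of the proteasome genes was not tested.

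**Figure D3:**
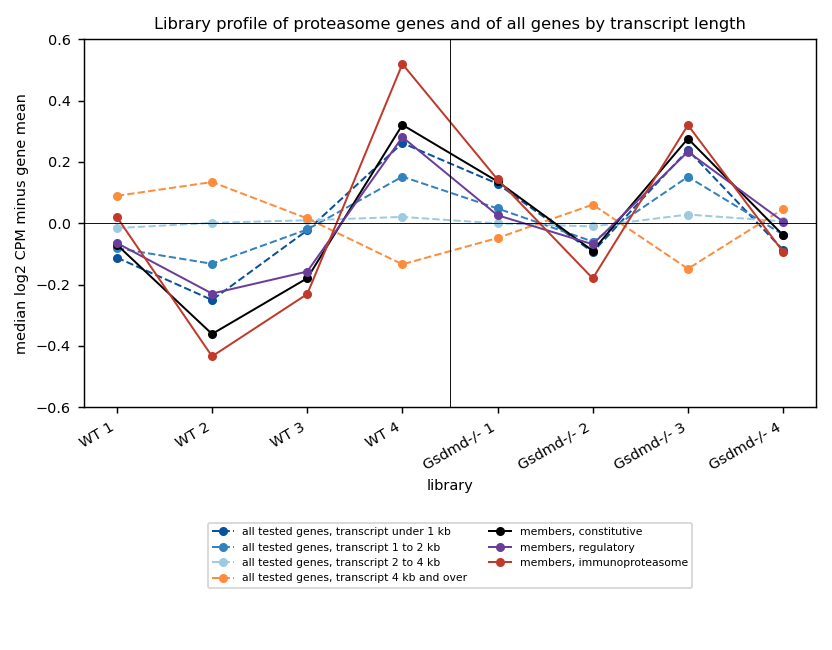
Median of log2 CPM minus the gene's mean (y axis) in each library (x axis), for the constitutive, inducible and regulatory proteasome genes (solid lines) and for all tested genes by transcript length (dashed lines). In WT 4, the constitutive members are at 0.32 and all genes under 1 kb at 0.26, while genes of 4 kb and over are at -0.13.

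In the 20S core, all 14 standard subunits had an estimate above 0, with a median log2 fold change of 0.11, and 0 had an unadjusted p under 0.05. Of all genes, 48.5% had an estimate above 0, and 4.74% were higher and 7.3% lower at an unadjusted p under 0.05. Without the WT libraries that stood apart from the others, the median of the standard subunits was -0.05. Among the alpha subunits, Psma4 had the highest estimate, with 85.9, 75.5, 81.9 and 110.0 CPM in WT 1 to 4 and 99.0, 93.0, 116 and 99.97 in Gsdmd-/- 1 to 4. Its log2 fold change was 0.21 (SE 0.123, adjusted p = 0.557) and ran from 0.056 to 0.33 under the alternatives. Psma3 had the lowest, 0.07 (SE 0.136, adjusted p = 0.888), with 78.9, 72.6, 75.4 and 108 CPM in the WT and 95.1, 78.8, 96.7 and 79.7 in the Gsdmd-/- libraries. For both genes WT 4 was above at least 3 of the 4 Gsdmd-/- libraries, so the genotypes overlapped. Psma8, which takes the place of Psma7 in spermatogenic cells, had 3.77, 4.09, 4.70 and 6.09 CPM in the WT and 4.09, 3.13, 4.38 and 4.51 in the Gsdmd-/- libraries (log2 fold change -0.21, adjusted p = 0.727).

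Each inducible catalytic subunit was compared with the standard subunit whose place it takes. Psmb8, the inducible chymotrypsin-like subunit, had 68.7, 43.5, 57.7 and 101 CPM in WT 1 to 4 and 80.3, 59.7, 84.7 and 62.4 in Gsdmd-/- 1 to 4. The WT libraries ran past the Gsdmd-/- range at both ends, and the log2 fold change was 0.08 (95% interval -0.42 to 0.59, adjusted p = 0.915). Its counterpart Psmb5 had 117, 108, 117 and 158 CPM in the WT and 136, 107, 154 and 117 in the Gsdmd-/- libraries, with a log2 fold change of 0.04 (-0.28 to 0.36, adjusted p = 0.942). Psmb9, the inducible partner of Psmb6, had 27.4, 18.8, 19.4 and 36.6 CPM in the WT and 28.1, 26.3, 27.2 and 24.1 in the Gsdmd-/- libraries. WT 2 and WT 3 were below every Gsdmd-/- library, WT 1 was within their range and WT 4 above it (log2 fold change 0.05, -0.38 to 0.48, adjusted p = 0.945). Psmb6, which carries the caspase-like site, had 189, 131, 161 and 261 CPM in the WT and 245, 193, 239 and 189.9 in the Gsdmd-/- libraries, the highest estimate of the beta ring at 0.23 (-0.19 to 0.65, adjusted p = 0.689).

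Psmb10, the inducible trypsin-like subunit, had 83.8, 72.6, 85.0 and 106 CPM in WT 1 to 4 and 95.6, 76.6, 110.1 and 82.6 in Gsdmd-/- 1 to 4, a log2 fold change of 0.07 (-0.24 to 0.38, adjusted p = 0.877). For its counterpart Psmb7, 57.1, 42.3, 50.5 and 66.5 CPM were counted in the WT and 65.4, 55.8, 70.7 and 59.1 in the Gsdmd-/- libraries (0.21, -0.09 to 0.52, adjusted p = 0.585). Under the alternatives, the log2 fold change of Psmb7 ran from 0.019 to 0.33. In both Psmb10 and Psmb7, WT 2 was the lowest library of all and Gsdmd-/- 3 the highest. The estimates of all 3 inducible subunits turned below 0 without WT 2 and WT 3, to -0.24 for Psmb8, -0.28 for Psmb9 and -0.06 for Psmb10, with adjusted p above 0.05 in each.

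The inducible share of catalytic subunit mRNA, a ratio of genes that move together, varied far less between libraries than the genes that make it up. It is the sum of Psmb8, Psmb9 and Psmb10 over the sum of all 6 catalytic subunits, in CPM per kb of principal transcript. The share was 23.3%, 23.1%, 23.4% and 23.3% in WT 1 to 4 and 21.7%, 21.9%, 22.7% and 22.1% in Gsdmd-/- 1 to 4. All 4 Gsdmd-/- libraries were below all 4 WT libraries. The means were 22.1% ± 0.428 in the Gsdmd-/- and 23.2% ± 0.132 in the WT libraries (SD, n = 4 each), a difference of -1.14 percentage points. Of single genes, 7.6% had separate ranges, but how often ratios of genes that move together separate was not counted. No test was made of the inducible share, since its genes were chosen with results known. On counts without division by length, the share was 33.0% ± 0.395 in the WT and 31.7% ± 0.490 in the Gsdmd-/- libraries, again without overlap. The share had been planned per exon length, which the principal transcript and the merged length of all annotated exons both meet. With the merged length, added after the data had been seen, the difference was -0.673 points and the genotypes overlapped. Their separation thus depends on the lengths used.

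By pair, the ratio of Psmb10 to Psmb7 (CPM per kb) was 1.43 ± 0.0987 in the WT and 1.28 ± 0.0732 in the Gsdmd-/- libraries. That of Psmb9 to Psmb6 was 0.0811 ± 0.00676 and 0.0725 ± 0.00633, and that of Psmb8 to Psmb5 was 0.293 ± 0.0574 and 0.308 ± 0.0135. Words are shared with other genes in 5 of the 6. In Psmb5, 57.1% of the 50-base words occur elsewhere, mainly in Gm3375, and in Psmb7 28.1%, in the overlapping Nek6. The shares were 12.5% for Psmb9, in Tap1, 5.83% for Psmb8 and 2.67% for Psmb6. Counts of these genes are uncertain to that extent, since the way shared reads were counted is not given in the sources used here.

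**Figure D4:**
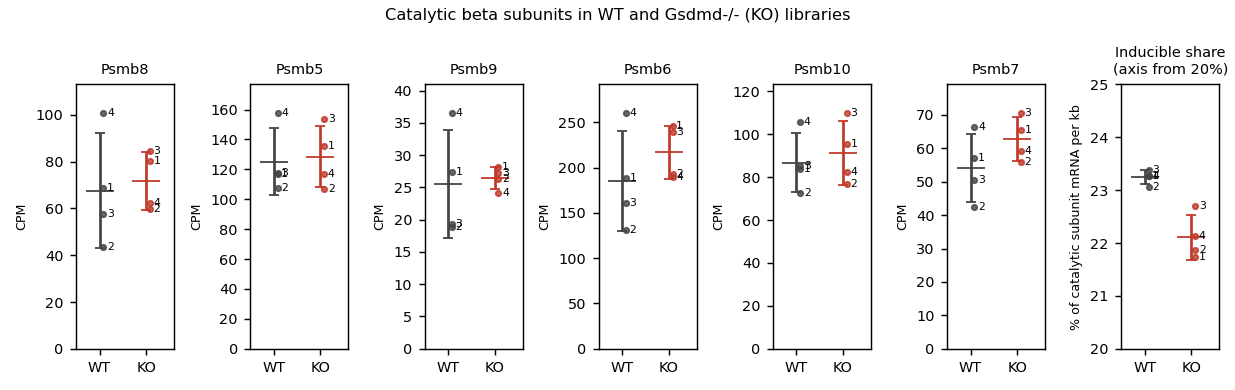
CPM (y axes, from 0) of the 3 inducible catalytic subunits, each beside its standard counterpart, and the inducible share of all 6 per kb (last panel, axis from 20%), in WT and Gsdmd-/- (KO) libraries. Points are libraries with their replicate numbers, bars the mean ± SD of 4 libraries. The CPM ranges overlap in every gene, and the shares are 23.1% to 23.4% in the WT and 21.7% to 22.7% in the KO.

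In the 19S cap, Psmd8 was the one member with an unadjusted p under 0.05. It encodes a lid subunit and had 416, 367, 393 and 480.2 CPM in WT 1 to 4 and 519, 472, 564 and 481 in Gsdmd-/- 1 to 4. WT 4 was above Gsdmd-/- 2 and all other WT libraries were below every Gsdmd-/- library. The log2 fold change was 0.30 (SE 0.103, 95% interval 0.07 to 0.53), with an adjusted p of 0.301 by the edgeR quasi-likelihood test, so it did not pass.

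The 6 ATPases, which unfold substrates at the entrance of the core, all had estimates above 0. Of these, Psmc4 had the highest, 0.12 (SE 0.136, adjusted p = 0.765), with 82.5, 73.2, 72.8 and 109 CPM in the WT and 90.4, 84.3, 105 and 87.6 in the Gsdmd-/- libraries. The lowest was that of Psmc2, 0.02 (SE 0.160, adjusted p = 0.979), with 92.8, 70.9, 81.2 and 120.1 CPM in the WT and 93.2, 83.2, 110.1 and 83.0 in the Gsdmd-/- libraries. WT 4 was the highest library in both. Of the 11 other 19S subunits, 9 were above 0, and Psmd3 was lowest with -0.02 (SE 0.137, adjusted p = 0.969), at 108, 81.5, 83.4 and 124 CPM in the WT and 95.9, 89.0, 107 and 99.8 in the Gsdmd-/- libraries. Its WT libraries lay in a low and a high pair outside the Gsdmd-/- range on either side.

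Among the chaperones of the 19S base, Psmd10 (gankyrin) had 21.9, 18.4, 23.3 and 29.0 CPM in the WT and 24.3, 22.5, 28.0 and 23.5 in the Gsdmd-/- libraries (log2 fold change 0.08, adjusted p = 0.851). Psmd5 had 45.5, 42.3, 43.1 and 48.5 CPM in the WT and 43.1, 44.9, 53.5 and 44.2 in the Gsdmd-/- libraries (0.05, adjusted p = 0.877). In both genes the ranges of the genotypes overlapped. Psmf1, the inhibitor of the core, had 29.4, 24.5, 24.7 and 32.3 CPM in the WT and 30.6, 30.9, 29.8 and 28.9 in the Gsdmd-/- libraries (0.12, adjusted p = 0.715). Its 4 Gsdmd-/- values lay close together, between the low WT 2 and WT 3 and the highest WT library.

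The chaperones of the 20S core were expressed at low levels. Psmg1, which pairs with Psmg2 to build the alpha ring, had 9.01, 6.97, 9.83 and 13.1 CPM in the WT and 10.2, 10.8, 11.9 and 11.1 in the Gsdmd-/- libraries (log2 fold change 0.18, SE 0.177, adjusted p = 0.744). Psmg3, which pairs with Psmg4, had 4.81, 4.28, 4.76 and 6.63 CPM in the WT and 3.79, 4.44, 4.63 and 3.52 in the Gsdmd-/- libraries. Its estimate was the lowest of all members, -0.32 (SE 0.185, adjusted p = 0.541), and ran from -0.48 to -0.17 under the alternatives. WT 2 was the one WT library within the Gsdmd-/- range.

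Among the activators, the estimates of the PA28 chains Psme1 and Psme2 were on either side of 0. Psme1, the alpha chain, had 85.0, 63.3, 77.4 and 114 CPM in WT 1 to 4 and 94.7, 79.5, 103 and 79.0 in Gsdmd-/- 1 to 4 (log2 fold change 0.07, SE 0.167, adjusted p = 0.908). Psme2, the beta chain, had 59.6, 51.4, 55.9 and 85.6 CPM in the WT and 72.6, 42.8, 63.2 and 40.9 in the Gsdmd-/- libraries (-0.20, SE 0.213, adjusted p = 0.758, and -0.018 without WT 4). Gsdmd-/- 2 and 4 were below every WT library in Psme2 and not in Psme1. The nuclear activator Psme3 and the PA200 gene Psme4 had estimates of 0.03 and -0.02.

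The counts of Psme2 were divided unevenly between it and Psme2b, and 59.3% of the 50-base words of Psme2 occur in another transcript. Psme2 held 58.1%, 64.2%, 57.9% and 58.3% of the counts of both genes in WT 1 to 4 and 63.4%, 45.8%, 52.5% and 42.05% in Gsdmd-/- 1 to 4. The 95% Wilson intervals, which cover counting error only, were 39.5% to 44.6% in Gsdmd-/- 4 and 61.3% to 65.6% in Gsdmd-/- 1. Psme2b had 43.0, 28.7, 40.7 and 61.3 CPM in the WT and 41.8, 50.7, 57.2 and 56.3 in the Gsdmd-/- libraries (log2 fold change 0.25, adjusted p = 0.679). Summed over both genes, the level was 107 ± 28.5 CPM in the WT and 106 ± 13.0 CPM in the Gsdmd-/- libraries (SD, n = 4 each). In the sum, the genotype means differed by less than either SD.

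**Figure D5:**
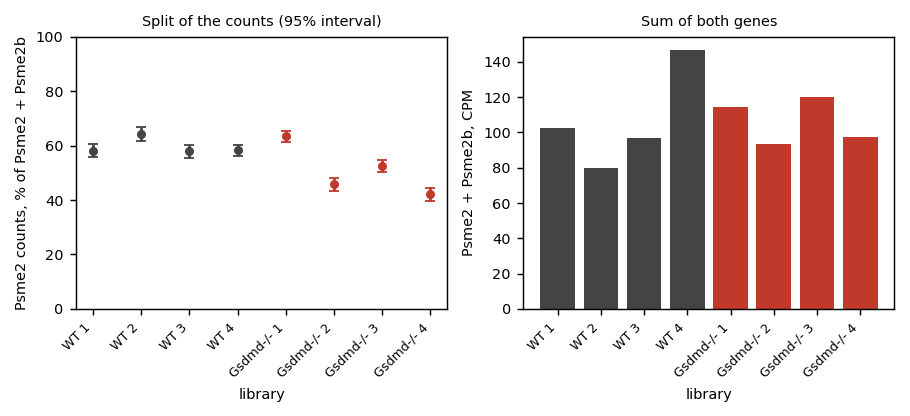
Left, counts of Psme2 as a percentage of Psme2 plus Psme2b (y axis) in each library, with 95% Wilson intervals. Right, the sum of both genes in CPM. The share runs from 42.05% to 63.4% in the Gsdmd-/- (red) and from 57.9% to 64.2% in the WT libraries (black), and the mean sums are 107 and 106 CPM.

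Other relatives that share the symbol stem held few counts. Psmc3ip, a recombination factor whose name comes from binding Psmc3, had between 12 and 30 counts per library, and the pseudogenes Psmb6-ps2 and Psmb7-ps2 had 1 and 2 counts in all. Of the genes with other names, Gm13835 shares 22.0% of the words of Psma3 and had 5181 counts over the 8 libraries, against 11159 for Psma3, so counts of Psma3 are uncertain. Psmb3 and Psma5 share 55.8% and 55.4% of their words with other genes, and Psmd8 shares none.

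Genes that control, feed or follow the proteasome were read from 6 lists with 68 genes, of which 64 were tested. Irf1, the interferon regulatory factor that binds the promoters of inducible subunits, was the one gene that passed the test. It had 31.7, 38.9, 44.8 and 44.3 CPM in WT 1 to 4 and 21.1, 21, 26.6 and 25.2 in Gsdmd-/- 1 to 4, without overlap. Expression of Irf1 fell by 0.77 on the log2 scale (SE 0.133, adjusted p = 0.0468, edgeR quasi-likelihood test), where 0.349% of all genes had an adjusted p under 0.05. Its adjusted p was between 4.94e-05 and 0.233 under the alternatives and above 0.05 in 10 of them, among them 7 of the 8 fits that left out 1 library. The log2 fold changes of the inducible subunits Psmb8, Psmb9 and Psmb10, which Irf1 is known to induce, were 0.08, 0.05 and 0.07.

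At an unadjusted p under 0.05, 3 of the 64 genes were higher and 7 lower, where 4.74% and 7.3% of all genes were. In the interferon list of 11 genes, Stat2, a transducer of type I interferon signals, had 44.1, 52.5, 47.8 and 41.7 CPM in the WT and 35.7, 34.9, 23.2 and 26.7 in the Gsdmd-/- libraries (log2 fold change -0.63, adjusted p = 0.124). For Irf2 the log2 fold change was -0.23 (adjusted p = 0.279), while the interferon-gamma receptor chain Ifngr2 had 0.24 (adjusted p = 0.318) and the feedback inhibitor Socs1 0.38 (adjusted p = 0.36). Stat2 and Irf2 had separate ranges in the genotypes, and Ifngr2 and Socs1 did not. None of the 8 interferon-stimulated genes tested, out of 11, had an unadjusted p under 0.05. A list this short does not set such a count apart from the shares of all genes given above.

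In the NRF1 list of 10 genes, Nfe2l1 itself had 231, 284, 273 and 225 CPM in the WT and 218, 225, 207 and 220.3 in the Gsdmd-/- libraries (log2 fold change -0.22, adjusted p = 0.396). The high WT values were those of WT 2 and WT 3, the libraries in which the subunits were low. Under the alternatives, the log2 fold change of Nfe2l1 ran from -0.27 to -0.068. Its principal transcript has 4654 bases, and all genes of 4 kb and over had median deviations of 0.13 in WT 2 and -0.13 in WT 4. The part of transcript length in the values of Nfe2l1 was not tested. For its relative Nfe2l2 (NRF2), the log2 fold change was -0.29 (adjusted p = 0.302), with ranges of 330.2 to 394 CPM in the WT and 260.2 to 331 CPM in the Gsdmd-/- libraries. Keap1, which holds NRF2 in the cytosol, was between 51.8 and 55.7 CPM in the WT and between 40.2 and 46.2 CPM in the Gsdmd-/- libraries (-0.30, adjusted p = 0.179).

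Among the 17 tested genes for proteasome maturation and docking, Zfand5, which stimulates the 26S proteasome, had 217, 186, 183 and 217 CPM in the WT and 267, 275, 276 and 261 in the Gsdmd-/- libraries. The genotypes did not overlap, and the log2 fold change was 0.42 (SE 0.0851) with an adjusted p of 0.0854 by edgeR. Pomp, the chaperone that matures the beta ring, had 123, 104, 125 and 173 CPM in the WT and 137, 125, 161 and 128 in the Gsdmd-/- libraries (0.07, adjusted p = 0.896), with the same high and low libraries as the subunits. Of the 12 genes of MHC class I peptide loading, 0 had an unadjusted p under 0.05. Of all genes, 4.74% were higher and 7.3% lower at that threshold, and a list this short does not set such a count apart. Tap1, which imports proteasome products into the endoplasmic reticulum and starts beside Psmb9, had 77.8, 38.1, 35.4 and 77.8 CPM in WT 1 to 4 and 75.6, 68.4, 59.1 and 54.9 in Gsdmd-/- 1 to 4 (0.17, adjusted p = 0.836). WT 2 and WT 3 were low in Tap1 as in Psmb9, and the exons of these neighbours overlap by 212 bases, so that reads there may have been counted on either gene.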

How the data were processed

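BMDM RNA was sequenced in 4 WT and 4 Gsdmd-/- libraries, prepared with an Illumina TruSeq kit per the labels. The authors deposited one table of raw read counts per gene, not normalized. The labels name build mm10, and the aligner and counting tool are not given in the sources used here. Members and gene lists were chosen with earlier results of these data known, and members were named by role, by p and by the extremes of each role.

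Counts were scaled by TMM, filtered with filterByExpr and tested for genotype with the two-sided quasi-likelihood test of edgeR 4.0.16 (R 4.3.3) on 12911 genes, with Benjamini-Hochberg adjustment. The test was checked on simulated data. CPM use the TMM factors, and levels per kb use the principal transcript of GENCODE M21 (54409 of 54532 genes found). Shared words are 50-base stretches found in another gene's transcripts. Alternatives were DESeq2 1.42.0, limma voom 3.58.1, scaling by RLE or the upper quartile, a filter of 10 counts in each library or none, a replicate block and fits with libraries left out. Replicate numbers did not pair the libraries. With 14935114 to 16794810 counts per library, standard errors of the members' log2 fold changes were 0.0715 to 0.228. Of the list genes with an unadjusted p under 0.05, 1 is not reported here.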

Additional observations from a re-analysis of the deposited data

Results flagged for a closer look

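The share of Psme2 in the counts of Psme2 and Psme2b was 64.2% in WT 2 (95% Wilson interval 61.6% to 66.7%), apart from the other WT libraries, which lay between 57.9% and 58.3%. The gap took up 0.934 of the whole WT range. It was the one such value among 80 groups of 4 libraries, and chance alone marks about 5% of groups. The Gsdmd-/- libraries ranged more widely, from 42.05% to 63.4%.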

How the results depend on the processing

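Under all alternatives run, 0 members had an adjusted p under 0.05. Counts at an unadjusted p under 0.05 moved with the libraries: 1 member was higher with all libraries, 1 to 16 with 1 library left out (16 without WT 4), 0 without WT 2 and WT 3, and 0 where a log2 fold change of at least 0.5 was also asked, while 0 were lower except without WT 2 and WT 3 (2, where 13.1% of all genes had an unadjusted p under 0.05 in either direction). The pathway lists had 1 gene with an adjusted p under 0.05, but 0 with upper-quartile scaling, 0 with voom, 4 with DESeq2 (Irf1, Zfand5, Keap1 and Stat2) and 0 to 1 with 1 library left out. In the main fit 0.349% of all genes had one. The shares of all genes under the alternatives are not given here, so these counts have no background of their own. Without WT 2 and WT 3 the 1 gene was not Irf1 but Irf7, named after its values were seen (log2 fold change -1.72, adjusted p = 0.0178, against -0.82 and 0.728 with all libraries). The difference in the inducible share was -1.34 to -1.01 points with 1 library left out and -0.673 with merged exon lengths. Of 528 alternative values for 33 named genes, 478 kept their direction and side of the threshold, 10 (all Irf1) lost the call, 3 gained one and 37 changed sign, none of the last with an adjusted p under 0.05. Without WT 2 and WT 3, log2 fold changes were -0.24 for Psmb8, -0.28 for Psmb9, -0.055 for Psmb10, -0.10 for Psmb5, -0.052 for Psmb6, -0.16 for Psme1, -0.093 for Psma3, -0.059 for Psmc4, -0.21 for Psmc2, -0.053 for Psmd10, -0.021 for Psmd5, -0.039 for Psmf1, -0.0090 for Psmg1, -0.11 for Pomp and -0.27 for Tap1. With 1 library left out, they ran from -0.081 to 0.35 for Psmb8, -0.074 to 0.28 for Psmb9, -0.029 to 0.18 for Psmb10, -0.056 to 0.17 for Psmb5, -0.054 to 0.24 for Psme1, -0.00043 to 0.21 for Psma3, -0.090 to 0.18 for Psmc2, -0.11 to 0.11 for Psmd3, -0.015 to 0.21 for Psmd10, -0.025 to 0.091 for Psmd5, -0.031 to 0.23 for Pomp and -0.0016 to 0.36 for Tap1. Without WT 4, Psme2 was at -0.018, Psma8 at -0.056, Psmb6 at 0.44 and Psmg1 at 0.36, with no change of sign. Same-numbered libraries correlated at -0.20 to 0.18, so the numbers were not taken to pair them. With the replicate block, 0 members had an adjusted p under 0.05 (lowest 0.455), 1 was higher at an unadjusted p under 0.05 (as were 3.99% of all genes), and the class medians were 0.13 (constitutive), 0.08 (regulatory) and 0.10 (inducible). The causes of these changes were not tested. Low counts limit Psmg3, Psma8 and Psmb11 most.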
